A study of Mus musculus with 12 samples.

Results

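The genes described here are 9 enzymes and helpers that build O-linked sugar chains on mucins, followed as gene-level RNA in mouse colon: St6galnac6, B3gnt6, Galnt12, Galnt3, Galnt7, Gcnt1, Gcnt3, C1galt1 and C1galt1c1. They were taken by name from the 22377 genes of the deposited transcript table, all 9 were found, and all 9 passed the filter on low values (4 or more libraries with 1 FPKM or more). FPKM is a count of fragments scaled for transcript length and library total, and a gene's value is the sum over its listed transcripts. The 12 libraries came from colon RNA of mice in 3 groups of 4, labelled by treatment: FGF1, DSS and control. The titles of the DSS libraries carry a number code in place of the treatment, and the sources used here do not explain it. DSS is dextran sulfate sodium, which injures the colon lining. FGF1 is a secreted growth factor, and the design text names recombinant FGF1 given in a mouse model of inflammatory bowel disease and asks whether it steers stem cells toward goblet cells. The sources used here give no strain, age, dose or duration, and do not state whether the FGF1 mice also received DSS. The labels do not state that libraries came from separate animals, so p-values measure only the spread between these samples.

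Mucin O-glycosylation takes place in the Golgi, one sugar at a time. Polypeptide GalNAc transferases (the Galnt family) start a chain by putting N-acetylgalactosamine on serine or threonine. C1galt1, which needs its chaperone C1galt1c1 (also called Cosmc), adds galactose to make the core 1 chain. B3gnt6 adds N-acetylglucosamine instead and makes core 3. Gcnt1 branches core 1 into core 2, and Gcnt3 makes core 2 and core 4 branches. Sialyltransferases, the family that includes St6galnac6, cap chains with sialic acid. Which chains St6galnac6 itself acts on was not measured here. In the colon O-linked chains coat Muc2, the gel-forming mucin secreted by goblet cells, and shield it from bacterial degradation.

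St6galnac6 (ENSMUSG00000026811, chr2:32599709-32620806 on the plus strand of GRCm38) was the gene with the largest differences among the 9, and its RNA is a mixture of transcripts with different first exons. All 13 transcripts of the GENCODE vM21 annotation were listed. They fall into 3 groups by start: an upstream start with 2 transcripts, a middle start 7252 bases further with 5, and a downstream start 8362 bases further with 6. The annotated coding sequences start at different ATGs and then share exons. St6galnac6-209 (upstream) has 939 coding bases from 32599780, St6galnac6-204 (middle) 897 from 32609302, and St6galnac6-201 (downstream) 999 from 32608071. The last 882 coding bases of St6galnac6-209 are the same as in the other two, and St6galnac6-204 and St6galnac6-201 share all 897 of the shorter sequence. The first 60 coding bases of each are shown because the results below differ by start. Capitals mark the start codon, and the sequences are GENCODE transcripts read 5′ to 3′ on the plus strand.
St6galnac6-209: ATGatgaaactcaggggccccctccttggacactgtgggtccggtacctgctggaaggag
St6galnac6-204: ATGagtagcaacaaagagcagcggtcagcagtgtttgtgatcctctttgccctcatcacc
St6galnac6-201: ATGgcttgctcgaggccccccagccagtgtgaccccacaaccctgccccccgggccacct

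**Figure D1:**
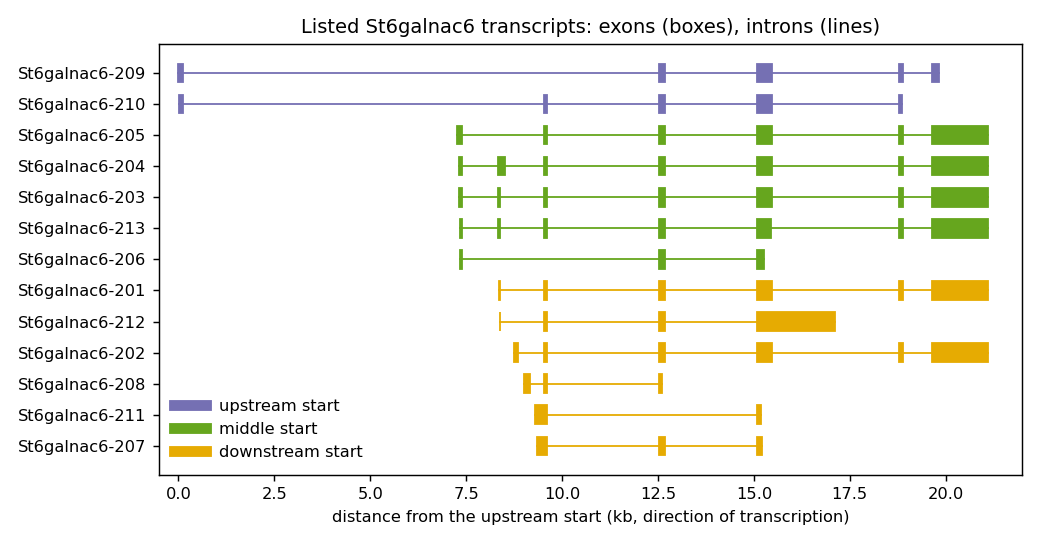
Exons (boxes) and introns (lines) of the 13 listed St6galnac6 transcripts against distance in kb from the upstream start, coloured by start group. Transcripts of the middle and downstream starts begin 7252 bases or more after the upstream start, and all groups share internal exons.

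St6galnac6 and Gcnt1 were the enzymes called between DSS and control. The 250 bases before an annotated start of each are therefore printed, from the RefSeq promoter table (GRCm38.p6), with CpG dinucleotides in capitals. The table holds promoters for 5 of the 9 genes. The St6galnac6 window, chr2:32599459-32599708 on the plus strand, ends at the upstream start, whose transcript levels overlapped between DSS and control; no window is printed for the middle and downstream starts, where the lower level in DSS lay. The printed window has 51.6% G and C and 2 CpGs. The Gcnt1 window, chr19:17356668-17356917 on the minus strand, ends at the start of Gcnt1-203. It has 55.6% G and C and 10 CpGs. Over 32851 promoter windows of the same length, the medians were 52.4% and 6 CpGs. Both printed windows lay within the quartiles, 45.2% to 61.2% and 2 to 16 CpGs. Windows at other Gcnt1 starts had 40.4% and 51.6% G and C, with 2 CpGs each.
St6galnac6 upstream start: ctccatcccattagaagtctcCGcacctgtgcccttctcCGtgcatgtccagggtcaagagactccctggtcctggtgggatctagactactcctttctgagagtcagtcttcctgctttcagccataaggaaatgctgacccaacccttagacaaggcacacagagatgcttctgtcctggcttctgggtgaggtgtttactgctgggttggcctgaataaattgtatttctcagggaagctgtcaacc
Gcnt1-203 start: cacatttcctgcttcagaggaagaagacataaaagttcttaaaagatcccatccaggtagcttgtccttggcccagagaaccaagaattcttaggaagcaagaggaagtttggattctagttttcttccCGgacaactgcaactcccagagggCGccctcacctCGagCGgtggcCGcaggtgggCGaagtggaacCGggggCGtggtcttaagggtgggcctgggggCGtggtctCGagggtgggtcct

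The sialyltransferase St6galnac6 had 121.6, 92.2, 92.0 and 69.0 FPKM in DSS colon, against 189.4, 181.4, 240.9 and 238.3 FPKM in control colon. Every DSS library lay below every control library. In FGF1 colon it had 218.4, 253.6, 300.8 and 166.3 FPKM, above every DSS library and overlapping control. The means were 235 ± 56.8 in FGF1, 93.7 ± 21.6 in DSS and 212.5 ± 31.4 in control (SD, n = 4 libraries each). Its RNA thus fell in DSS by 1.19 ± 0.20 (SE) on the log2(FPKM + 1) scale relative to control (adjusted p = 0.00484). All tests named here are limma's two-sided test over 12578 genes with Benjamini-Hochberg adjustment, called at an adjusted p under 0.05. Between FGF1 and DSS, which shares the DSS libraries with the comparison before it, the log2 difference was 1.31 ± 0.20, with an adjusted p of 0.0495 that only just passed the threshold. Between FGF1 and control it was 0.12 (adjusted p = 0.844).

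**Figure D2:**
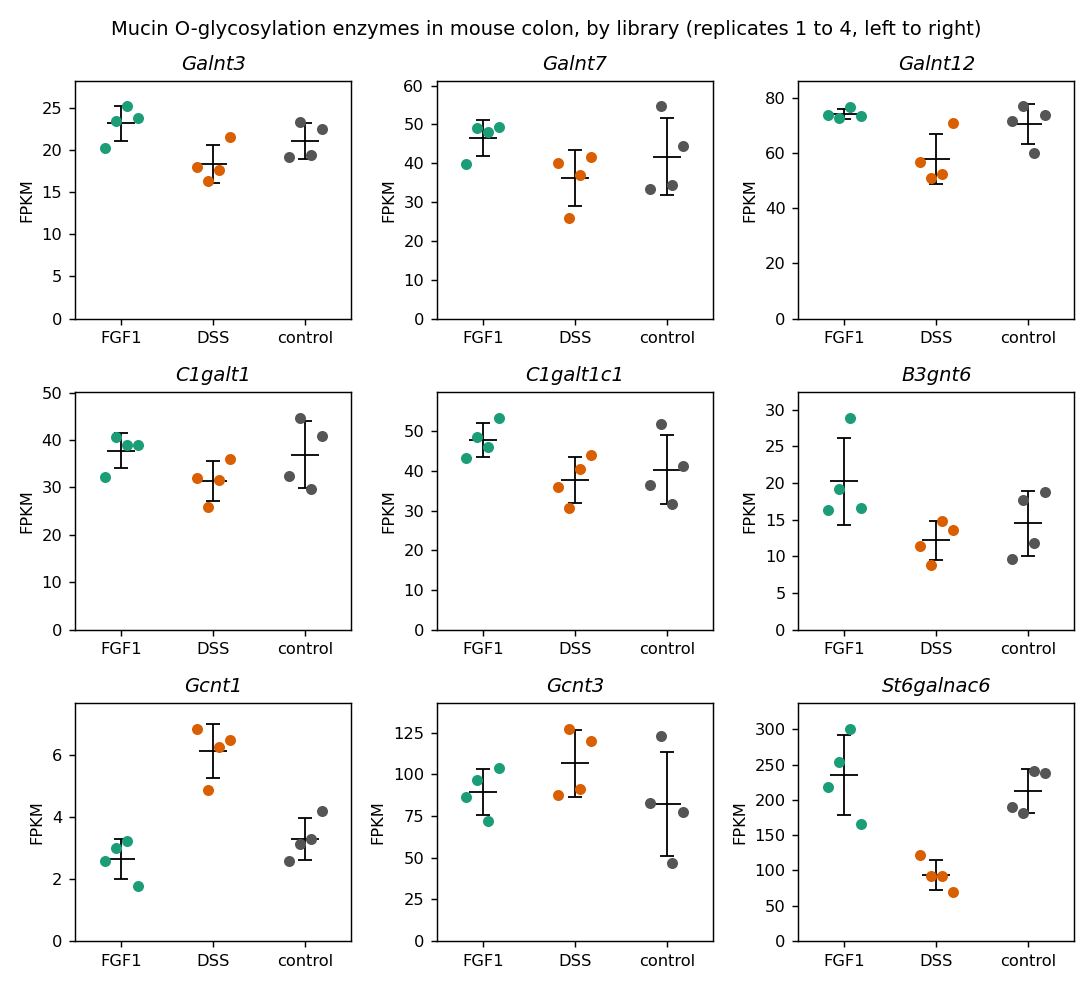
FPKM of each of the 9 enzymes in each library of the FGF1, DSS and control groups, with each panel on its own linear scale from 0. Points are libraries, and bars are the mean and SD of 4 libraries. For St6galnac6 the 4 DSS libraries (69.0 to 121.6) lie below all others, and for Gcnt1 the 4 DSS libraries (4.86 to 6.85) lie above all others.

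The lower St6galnac6 level in DSS lay in transcripts from the middle and downstream starts. This grouping was made after the values were seen, and the values are given as a description with no test. The upstream transcripts share internal exons with those of the other starts, so the FPKM of each start are estimates. St6galnac6-209 has 1013 bases, against 2536 in St6galnac6-204 and 2277 in St6galnac6-201, so assigning fragments otherwise would also change the gene's FPKM. Transcripts of the upstream start summed to 56.6, 43.0, 51.3 and 38.3 FPKM in DSS, against 46.3, 39.1, 36.6 and 42.4 in control. The groups overlapped. Transcripts of the middle and downstream starts together summed to 65.0, 49.2, 40.7 and 30.7 FPKM in DSS, against 143.2, 142.4, 204.3 and 195.8 in control, with no overlap. The upstream start thus held 46.5% to 55.8% of St6galnac6 FPKM in DSS and 15.2% to 24.4% in control.

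In FGF1 libraries 1, 2 and 3 the upstream start held 15.1%, 18.4% and 17.5% of St6galnac6 FPKM, within or near the control range. FGF1 4 stood apart with 77.2%: its upstream transcripts summed to 128.4 FPKM and those of the middle and downstream starts to 37.9 FPKM, a value inside the DSS range. Among the other FGF1 libraries the middle and downstream sum was 185.5, 207.0 and 248.1 FPKM. The gene total of FGF1 4, 166.3 FPKM, therefore had another makeup than that of the other libraries in its group.

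**Figure D3:**
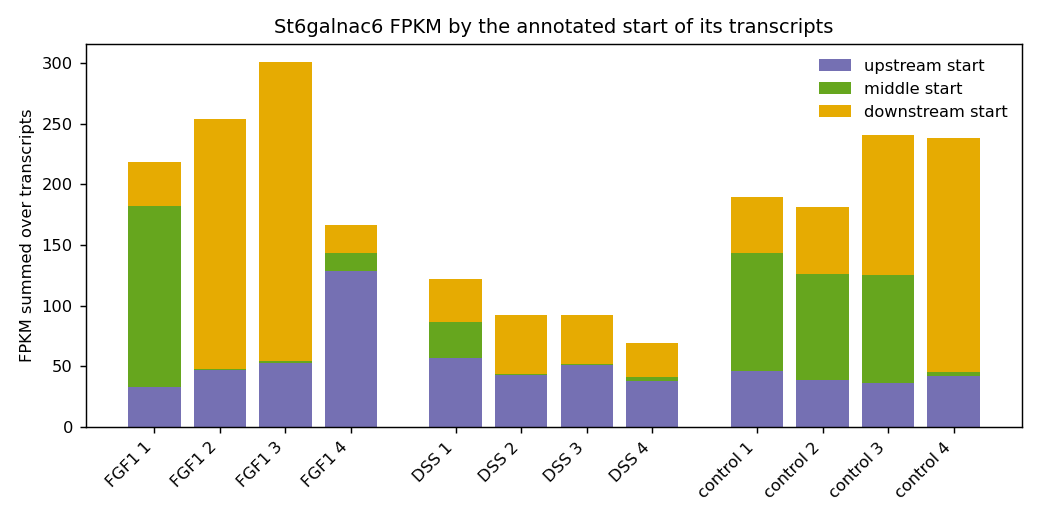
St6galnac6 FPKM in each library, stacked by the annotated start of its transcripts. The upstream part is 38.3 to 56.6 FPKM in DSS and 36.6 to 46.3 FPKM in control, while the remainder is smaller in every DSS library; FGF1 4 has an upstream part of 128.4 FPKM.

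The division between the middle and downstream starts was not steady among libraries. St6galnac6-204 was at 147.8 FPKM in FGF1 1 and at 86.4 to 95.9 FPKM in control 1, 2 and 3. It was under 0.2 FPKM in the other 8 libraries. In control 4, FGF1 2 and FGF1 3 St6galnac6-201 held most of the RNA, at 187.0, 198.7 and 241.1 FPKM. These transcripts share all exons but the first ones, so their separate FPKM are estimates and are less certain than their sum. The sum over transcripts listed in all 12 libraries leaves St6galnac6-204 out, and on it the difference between DSS and control was -0.63 (adjusted p = 0.403).

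The lower St6galnac6 level in DSS went with lower markers of non-epithelial cells. In bulk tissue, fewer cells of a type and less RNA per cell cannot be told apart. All 9 fibroblast markers passed the test as lower in DSS than in control, and their summed FPKM was 84.5 to 243 in FGF1, 16.5 to 103 in DSS and 287 to 398 in control. Of 13 smooth muscle markers 5 were called lower, with a summed FPKM of 1460 to 8622 in FGF1, 767 to 2514 in DSS and 3218 to 9957 in control. Epithelium markers differed less: 1 of 11 tested was called, as higher. Their summed FPKM was 7057 to 8897 in FGF1, 6859 to 8085 in DSS and 6251 to 6809 in control, with DSS above control without overlap. Of 10 absorptive colonocyte markers 3 were called higher in DSS than in control and 0 lower, beside 2.23% and 10.1% of all genes. Their summed FPKM was 4837 to 10272 in FGF1, 7853 to 15610 in DSS and 4220 to 13348 in control. Among all tested genes, the closest to St6galnac6 over the 12 libraries, by Pearson's r of log2(FPKM + 1), were Fn1 (0.96), Utp20 (0.95) and Kdelc2 (0.95). The libraries share group and makeup, and the r values are a description. Fn1, which encodes the matrix protein fibronectin, had 10.3, 6.56, 5.62 and 0.935 FPKM in DSS and 13.8 to 81.3 FPKM in control. With the smooth muscle marker level as a covariate the St6galnac6 difference between DSS and control was -0.63 ± 0.15 (SE, adjusted p = 0.0884). With the epithelium marker level it was -1.08 ± 0.32 (adjusted p = 0.181). Over all genes these covariates left 29 and 34 calls, in place of 1549. These covariates cannot separate group from makeup, because the marker levels of DSS and control did not overlap. The smooth muscle level, a mean of log2(FPKM + 1), was 5.066 to 6.876 in DSS and 7.29 to 8.91 in control. The epithelium level was 8.667 to 8.845 in DSS and 8.563 to 8.643 in control. No fibroblast covariate was fitted, and the part of cell makeup in the St6galnac6 result was not tested.

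Gcnt1 (ENSMUSG00000038843, chr19:17326141-17372844, minus strand), the core 2 branching enzyme, moved the other way. It had 6.85, 4.86, 6.27 and 6.49 FPKM in DSS, against 2.57, 3.13, 3.29 and 4.19 FPKM in control. No library of the groups overlapped, and the means were 6.12 ± 0.87 in DSS and 3.29 ± 0.67 in control (SD, n = 4 each). The rise in DSS was 0.73 ± 0.17 on the log2(FPKM + 1) scale (adjusted p = 0.0161), a scale that understates the change of a gene this low. In FGF1 colon Gcnt1 had 2.59, 3.01, 3.23 and 1.77 FPKM, below every DSS library. That difference from DSS, -0.97, missed the threshold (adjusted p = 0.054). It passed in 1 of 26 alternatives, median-of-ratios scaling of the libraries (-1.03, adjusted p = 0.0392), and the highest adjusted p was 0.736. Between FGF1 and control the difference was -0.24 (adjusted p = 0.556).

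Gcnt1-203 held at least 96.8% of Gcnt1 FPKM in each library. The genes with the closest pattern over the 12 libraries were Gpcpd1 (r = 0.93), Slc19a1 (0.90) and Saa1 (0.89). With the smooth muscle level as a covariate the Gcnt1 difference between DSS and control was larger, 0.96, but no longer passed the test (adjusted p = 0.0753). With the epithelium level it was 1.08 (adjusted p = 0.0798). For Gcnt1 too, these covariates cannot separate group from makeup. Over all genes these covariates left 29 and 34 calls, in place of 1549.

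Set against all genes, 2 of 9 enzymes were called between DSS and control, where 12.3% of all tested genes were called (2.23% higher and 10.1% lower). Median-of-ratios scaling moved that split to 676 higher and 1003 lower genes, in place of 280 and 1269. St6galnac6 was the 1 enzyme called lower and Gcnt1 the 1 called higher. Libraries of DSS and control did not overlap for the same 2 of 9 enzymes, and for 16.9% of all genes. The median log2 difference of the 9 was -0.20, beside -0.07 over all genes. Between FGF1 and DSS 1 of 9 was called, St6galnac6, beside 0.0557% of all genes (7 genes; 0.0398% higher and 0.0159% lower). Libraries did not overlap for 4 of 9 (St6galnac6, B3gnt6, Galnt12 and Gcnt1), beside 6.28% of all genes. There the median of the 9 was 0.34, beside 0.05 over all genes. Between FGF1 and control none of the 9 was called by limma (0.0795% of all genes, or 10; 0.00795% higher and 0.0716% lower), where 1753 of all genes had an unadjusted p under 0.05. No enzyme's libraries were free of overlap, beside 10.3% of all genes.

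**Figure D4:**
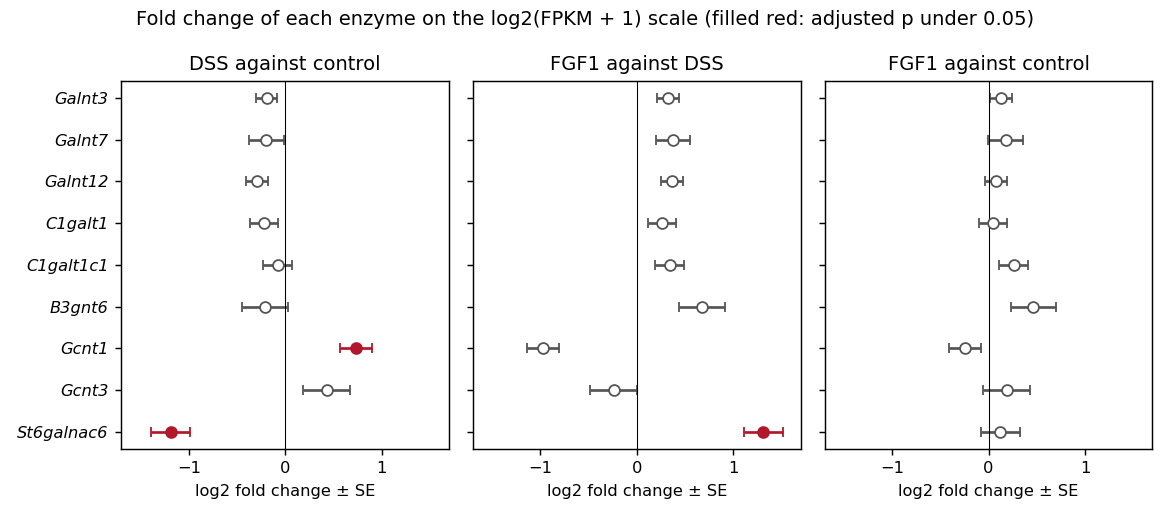
Log2 fold change of each enzyme on the log2(FPKM + 1) scale with its SE, in DSS against control, FGF1 against DSS and FGF1 against control; filled red points have an adjusted p under 0.05. St6galnac6 (-1.19 and 1.31) and Gcnt1 (0.73 and -0.97) lie farthest from 0 in the comparisons that involve DSS.

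Of the 3 GalNAc transferases that start the chains, none was called in any comparison. Galnt12 (chr4:47091909-47123070), the most abundant of them, had 73.8, 72.6, 76.8 and 73.4 FPKM in FGF1, 56.6, 50.9, 52.5 and 70.8 FPKM in DSS and 71.5, 76.8, 59.9 and 73.7 FPKM in control. All FGF1 libraries lay above all DSS libraries, the closest of them DSS 4, while DSS and control overlapped. The difference was 0.37 between FGF1 and DSS (adjusted p = 0.222) and -0.29 ± 0.11 between DSS and control (adjusted p = 0.118). The smaller transcript Galnt12-202, with a skipped exon, was listed above 0 in 4 of 12 libraries, with 13.4 FPKM in DSS 4 and 6.52 in DSS 2. The sum over transcripts listed in all 12 libraries leaves it out, and the DSS and control difference was then -0.40 (adjusted p = 0.0433). Without DSS 4 it was -0.39 (adjusted p = 0.0425). The difference was called in 4 of 27 alternatives. It was -0.15 with median-of-ratios scaling (adjusted p = 0.474) and -0.11 with the epithelium covariate (adjusted p = 0.831).

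Galnt3 (chr2:66082766-66124994), another initiating transferase, had 20.2, 23.4, 25.2 and 23.8 FPKM in FGF1, 17.9, 16.3, 17.6 and 21.6 FPKM in DSS and 19.2, 23.3, 19.4 and 22.5 FPKM in control. Its groups overlapped in every comparison, with a difference of -0.19 between DSS and control (adjusted p = 0.292) and 0.32 between FGF1 and DSS (adjusted p = 0.264). Galnt7 (chr8:57523828-57653032), which prefers peptides that already carry GalNAc, had 39.7, 49.1, 47.9 and 49.4 FPKM in FGF1, 40.2, 25.8, 36.9 and 41.6 FPKM in DSS and 33.4, 54.6, 34.4 and 44.5 FPKM in control. These groups overlapped as well, with differences of -0.20 between DSS and control (adjusted p = 0.528) and 0.37 between FGF1 and DSS (adjusted p = 0.422). Its second transcript, Galnt7-202, has the same coding length of 1971 bases as Galnt7-201. It was at 2.96 to 16.8 FPKM in 8 libraries (FGF1 2, 3 and 4, DSS 1 and all 4 of control) and at 0.537 FPKM or less in FGF1 1 and in DSS 2, 3 and 4. Summed over the 3 transferases, FPKM was 143.8 ± 7.01 in FGF1, 112.2 ± 17.1 in DSS and 133.3 ± 18.1 in control (SD, n = 4 each).

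The core 1 pair was called in no comparison. C1galt1 (chr6:7844842-7875687) had 32.3, 40.6, 39.0 and 38.9 FPKM in FGF1, 32.0, 25.9, 31.6 and 35.97 FPKM in DSS and 32.5, 44.7, 29.6 and 40.8 FPKM in control. Its chaperone C1galt1c1 (chrX:38630785-38635087) had 43.1, 48.4, 46.0 and 53.4 FPKM in FGF1, 35.9, 30.6, 40.4 and 44.1 FPKM in DSS and 36.3, 51.8, 31.6 and 41.2 FPKM in control. The groups overlapped for both genes. For C1galt1 the log2 difference was -0.22 between DSS and control (adjusted p = 0.363), and for C1galt1c1 it was -0.08 (adjusted p = 0.788). Between FGF1 and DSS it was 0.26 for C1galt1 (adjusted p = 0.488) and 0.34 for C1galt1c1 (adjusted p = 0.391). The ratio of chaperone to enzyme, both per length, was 1.27 ± 0.098 in FGF1, 1.20 ± 0.066 in DSS and 1.09 ± 0.064 in control (SD, n = 4 each).

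B3gnt6 (chr7:98192417-98199481), which opens the core 3 path, had 16.3, 19.2, 28.9 and 16.6 FPKM in FGF1, 11.4, 8.85, 14.8 and 13.6 FPKM in DSS and 9.71, 17.7, 11.8 and 18.8 FPKM in control. Each FGF1 library lay above each DSS library, and DSS lay within or just under the control range. The FGF1 and DSS difference of 0.68 ± 0.24 did not pass the test (adjusted p = 0.268), nor did the DSS and control difference of -0.21 (adjusted p = 0.616). The FGF1 and control difference was 0.46 (adjusted p = 0.412). The ratio of B3gnt6 to C1galt1, the enzymes that compete for the first added sugar, was 0.536 ± 0.141 in FGF1, 0.387 ± 0.057 in DSS and 0.389 ± 0.067 in control (SD, n = 4 each). FGF1 3, at 0.742, had the highest ratio.

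Gcnt3 (chr9:70031496-70038088), the other branching enzyme, was far more abundant than Gcnt1. It had 86.3, 96.3, 71.9 and 103.5 FPKM in FGF1, 87.4, 127.3, 91.0 and 120.1 FPKM in DSS and 82.9, 122.7, 46.5 and 77.1 FPKM in control. The groups overlapped, with a difference of 0.43 ± 0.25 between DSS and control (adjusted p = 0.286) and -0.24 between FGF1 and DSS (adjusted p = 0.733). Gcnt1 made up 2.98% ± 1.07 of the FPKM of both genes in FGF1, 5.63% ± 1.57 in DSS and 4.31% ± 1.92 in control (SD, n = 4 each), so its rise left it a small part of the branching enzyme RNA.

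By mean FPKM per length, St6galnac6 was first of the 9 in FGF1 and control, followed by Gcnt3 and Galnt12, whose libraries overlapped with each other. In DSS Gcnt3 was first, and its libraries overlapped with those of St6galnac6, the next in order. St6galnac6 lay at the 98.1 percentile of all tested genes in FGF1, 94.6 in DSS and 98.0 in control. Galnt7, C1galt1c1 and C1galt1 came next in every group with overlapping neighbours. Galnt3, B3gnt6 and Gcnt1 came last in that order, and Galnt3 and B3gnt6 overlapped in FGF1 only. St6galnac6 made up 40.4% ± 6.44 of the summed FPKM of the 9 in FGF1, 23.5% ± 5.49 in DSS and 41.0% ± 7.83 in control (SD, n = 4 each).

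RNA of 1 mucin, Muc2, moved in the same comparison. Muc2, whose protein carries O-linked chains, had 2055, 1334, 2136 and 2426 FPKM in DSS, against 3024, 5609, 3341 and 4701 FPKM in control, and was called lower (-1.06 ± 0.25, adjusted p = 0.0189). In FGF1 it had 2831 to 3965 FPKM, and its difference from DSS of 0.77 was not called (adjusted p = 0.228). St6galnac6 per 100 FPKM of Muc2 was 6.94 ± 0.750 in FGF1, 4.99 ± 1.79 in DSS and 5.45 ± 1.71 in control (SD, n = 4 each), with DSS and control overlapping. Of 13 goblet cell markers 4 were called lower and 1, Zg16, higher in DSS than in control, beside 10.1% and 2.23% of all genes. The summed FPKM of the 13 was 7442 to 9964 in FGF1, 5719 to 7592 in DSS and 8554 to 12139 in control. Muc2 is among the 13, and the sum is weighted to the most abundant markers. Tff3, another of the 13, had 916.5 to 1112 FPKM in DSS and 181.5 to 806.9 in control. Its difference of 1.32 was not called (adjusted p = 0.0651).

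Elsewhere in the pathway, of 16 GalNAc transferases outside the 9, 7 were tested and 4 of these fell relative to control, beside the 10.1% of all genes called lower, and the list median was -0.58. Galnt18 fell by 1.03 (adjusted p = 0.00573), Galnt5 by 0.79 (adjusted p = 0.0376), Galnt2 by 0.60 (adjusted p = 0.027) and Galnt10 by 0.58 (adjusted p = 0.0271), all on the log2(FPKM + 1) scale. Galnt10 was the most abundant of these, at 23.2 ± 4.90 FPKM in DSS and 34.8 ± 4.12 in control (SD, n = 4 each). Galnt6, at 36.6 ± 3.10 FPKM in DSS and 45.3 ± 6.72 in control, was not called (adjusted p = 0.114). The falls in this list and in those below stood beside the lower non-epithelial markers in DSS: besides the fibroblast and smooth muscle markers above, all 5 endothelium markers were called lower, with a summed FPKM of 13.6 to 27.1 in FGF1, 3.56 to 20.9 in DSS and 35.8 to 49.7 in control. Galnt18 had 1.02, 1.26, 0.332 and 0.309 FPKM in DSS, against 2.28 to 2.53 in control. The order of the DSS libraries differed between the called genes. Galnt2, Galnt5 and Galnt10 were lowest in DSS 2, at 7.337, 1.076 and 15.96 FPKM, against 8.505, 1.761 and 26.15 FPKM in DSS 4. B4galt2, of the next list, had 1.25, 0.640, 0.560 and 0.384 FPKM in DSS, against 2.01, 2.88, 6.54 and 6.26 in control. B3gnt7, also called in that list, was lowest in DSS 1, at 2.665 FPKM. The part of cell makeup in these falls was not tested.

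Of the genes that extend and branch the chains, 2 of 12 tested fell in DSS relative to control and none was called higher (list median -0.13), beside 10.1% of all genes called lower and 2.23% higher. A share near that of all genes is no result about the list. They were B3gnt7, which adds N-acetylglucosamine to growing chains (fell by 1.45, adjusted p = 0.00808), and B4galt2, a galactosyltransferase (fell by 1.58, adjusted p = 0.0145). B3gnt7 had 5.15 ± 1.69 FPKM in DSS and 15.5 ± 3.23 in control (SD, n = 4 each). Of 15 tested gene identifiers for sialylation, fucosylation, sulfation and blood group capping, 4 fell and none was called higher (median -0.38), beside the same 10.1% and 2.23% of all genes. These were the sialyltransferases St3gal6 (fell by 1.92, adjusted p = 0.0265) and St3gal2 (fell by 1.22, adjusted p = 0.0104), the galactosyltransferase Ggta1 (fell by 0.98, adjusted p = 0.0201) and the sulfotransferase Chst4 (fell by 0.65, adjusted p = 0.0337). B4galnt2, which makes the Sda blood group cap in colon, was the most abundant of this list, at 145.6 ± 25.98 FPKM in DSS and 197.2 ± 73.4 in control, and was not called (adjusted p = 0.451). The galactose sulfotransferases Gal3st2 and Gal3st1 had positive differences that missed the threshold. Gal3st2 had 11.8, 19.0, 11.3 and 17.6 FPKM in DSS, against 9.21, 10.8, 2.82 and 5.34 in control, with no overlap (1.08 ± 0.40, adjusted p = 0.094). Gal3st1 differed by 0.49 ± 0.15 (adjusted p = 0.0541).

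**Figure D5:**
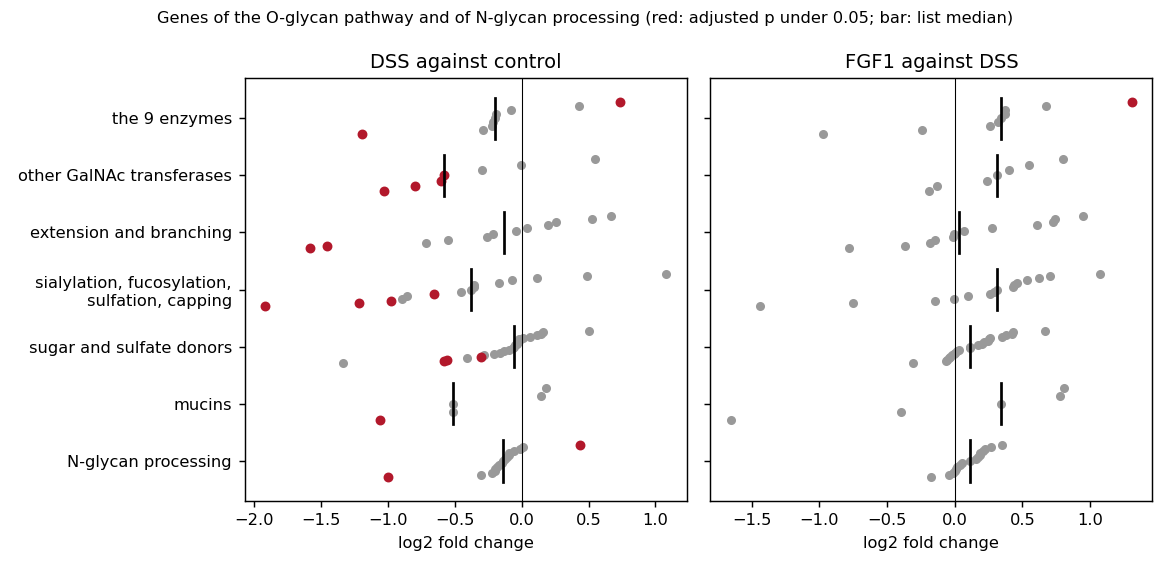
Log2 fold change of each tested gene of the 9 enzymes and of 6 related lists, in DSS against control and in FGF1 against DSS; red points have an adjusted p under 0.05 and black bars are list medians. In DSS against control the other GalNAc transferases have the lowest median (-0.58), and in FGF1 against DSS St6galnac6 is the single red point.

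Of 23 tested genes that supply sugar and sulfate donors, 3 fell in DSS and none was called higher, near the 10.1% and 2.23% of all genes, with a list median of -0.06 beside -0.07 over all genes: Fpgt (fell by 0.58, adjusted p = 0.0184) and Fuk (fell by 0.30, adjusted p = 0.0406), both of fucose salvage, and Gne (fell by 0.56, adjusted p = 0.039), which opens sialic acid synthesis. Among 5 tested mucins Muc2 was the 1 called, and the differences were negative for 3 and positive for 2. As a neighbouring pathway, N-glycan transfer and processing had 1 of 17 called higher, Mgat4b (0.43, adjusted p = 0.0448), and 1 lower, Man2a2 (fell by 1.00, adjusted p = 0.043), with a median of -0.14. Between FGF1 and DSS, and between FGF1 and control, limma called no gene of these 6 lists. The list medians in FGF1 against DSS were 0.31 for the other GalNAc transferases, 0.03 for extension and branching, 0.31 for capping, 0.12 for donor supply, 0.34 for mucins and 0.12 for N-glycan genes, beside 0.05 over all genes.

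The 12 libraries listed 45795 to 54313 transcripts each, and 11190 to 12721 genes reached an FPKM of 1. Epithelium markers were high in every library, and the stomach markers Gkn1 and Muc5ac had no listed value, with 0.56 FPKM or less summed over the other 3. The 5 small intestine markers summed to 8.79 to 15.8 FPKM in FGF1, 26.1 to 77.3 in DSS and 11.0 to 19.1 in control. Every DSS library thus lay above every other library. Only 3 of the 5 were tested, and all 3 had positive differences between DSS and control, none of them called. The source of this difference was not tested. DSS 3 and DSS 4 listed the fewest transcripts. Without these 2 libraries St6galnac6 differed by -0.99 between DSS and control (adjusted p = 0.0703) and Gcnt1 by 0.67 (adjusted p = 0.145). The St6galnac6 difference between FGF1 and DSS kept its direction in all 27 alternatives but passed the test in 5 of them. Leaving out any of 10 of the 12 libraries, each control library included, ended that call (adjusted p = 0.0554 to 0.147). It held without DSS 1 (adjusted p = 0.0236) or without FGF1 4 (adjusted p = 0.0288).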

How the data were processed

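Total RNA of mouse colon was made into libraries with oligo(dT) beads, per the labels' protocols. Cutadapt 1.9, HISAT2 2.0.4, StringTie 1.3.4d and edgeR are named with build GRCm38, per the submitters' processing notes; the sources used here do not state the role of each or the strandedness. The authors deposited transcript structure events with the FPKM of the transcript each event belongs to (29 transcripts for the 9 genes). A transcript without an event was not listed, so a gene's value can miss part of its RNA, and a 0 can be a failed assembly. FPKM holds no counts, so depth and counting error are unknown.

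Each transcript was counted once per library and summed per gene. Symbols came from GENCODE vM21 (22330 of 22377 identifiers matched). Limma 3.58.1 in R 4.3.3 (empirical Bayes with trend) was fitted to log2(FPKM + 1) of 12578 genes in all 12 libraries, with Benjamini-Hochberg adjustment over all genes. The script was tested on simulated data. The enzymes and gene lists were chosen with earlier results of these data known. Text names all 9 enzymes, up to 8 called genes per list by adjusted p, and the 3 genes most correlated with each called enzyme. Galnt6, B4galnt2, Gal3st1, Gal3st2, Tff3, Galnt12-202, Galnt7-202 and the St6galnac6 start groups were chosen after their values were seen. Alternatives were other pseudocounts, filters, transcript sums, scaling, fits, covariates and left-out libraries.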

Additional observations from a re-analysis of the deposited data

Results flagged for a closer look

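Of 39 groups of 4 libraries examined, 4 held a library far from the other 3 by Dixon's 95% criterion, and chance gives about 1 in 20. St6galnac6 had 77.2% of its FPKM in transcripts of the upstream start in FGF1 4, against 15.1% to 18.4% in the other FGF1 libraries (gap over range 0.947). Galnt7 had 39.7 FPKM in FGF1 1, below the 47.9 to 49.4 FPKM of the other FGF1 libraries (0.843). Galnt7-201 held 74.6% of Galnt7 FPKM in DSS 1, against 97.6% to 98.4% in the other DSS libraries (0.966). In control 1 it held 90.6%, against 68.0% to 69.7% in the other control libraries (0.924).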

How the results depend on the processing

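Each result was recomputed under 27 alternatives, or 26 where the filter left a gene out (Gcnt1 with a mean FPKM of at least 5, Galnt7 with start-event values). Over enzymes and comparisons, 669 values kept direction and side of the threshold, 30 lost and 5 gained a call, and 19 reversed. St6galnac6 in DSS against control reversed with end-event values (0.0802), sums over transcripts with an end event in the library, which hold only St6galnac6-209. End-event values also gave 0.96 for Galnt7 in that comparison and -0.89 in FGF1 against DSS. The cause of the other changes was not tested. With the smooth muscle covariate Gcnt3 gave -0.0715 in DSS against control and 0.0773 in FGF1 against DSS, and C1galt1 -0.0184 in FGF1 against control. With the epithelium covariate B3gnt6 gave 0.13 and Galnt7 0.0103 in DSS against control, and Gcnt1 0.31 and Gcnt3 -0.18 in FGF1 against control. C1galt1c1 in DSS against control gave 0.0609 with median-of-ratios scaling. Without control 3 and FGF1 3, FGF1 against control gave -0.0135 for Galnt12 and -0.0705 for C1galt1. Leaving out single libraries gave -0.18 to 0.0478 for C1galt1c1 in DSS against control, -0.0529 to 0.14 for C1galt1 in FGF1 against control, -0.0554 to 0.40 for Gcnt3 in FGF1 against control and -0.0075 to 0.28 for St6galnac6 in FGF1 against control.

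Called genes in DSS against control were 564 with a mean FPKM of at least 5, 727 with start-event and 708 with end-event values, 922 with transcripts listed in all 12 libraries, 1028 with the replicate block, 29 with the smooth muscle and 34 with the epithelium covariate, 168 without DSS 3 and DSS 4, and 692 to 1998 without single libraries (692 to 832 without DSS 3, DSS 4, control 3 or control 4). Called enzymes there were 1 with a mean FPKM of at least 5 and 0 with either covariate or without DSS 3 and DSS 4. With start-event values the 2 called were St6galnac6 and Galnt12 (adjusted p = 0.0449), and Gcnt1 lost its call (0.82 ± 0.81 SE, adjusted p = 0.604). With end-event values or transcripts listed in all 12 libraries they were Gcnt1 and Galnt12. Median-of-ratios scaling gave 676 higher and 1003 lower genes, beside 280 and 1269, and moved the median of all genes to 0.05 in place of -0.07.

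Called genes in FGF1 against DSS were 16 with a mean FPKM of at least 5, 15 with median-of-ratios scaling, 1 with start-event or end-event values, 4 with transcripts listed in all 12 libraries, 3 with the 8 libraries compared, 2 with the replicate block, with either covariate or without control 3 and FGF1 3, 0 without DSS 3 and DSS 4, and 0 to 43 without single libraries. Called enzymes there were 2 with median-of-ratios scaling, 0 to 1 without single libraries, and 0 with pseudocount 0.1 or 0.5, no filter, start-event or end-event values, transcripts listed in all 12 libraries, the 8 libraries compared, no variance trend, the replicate block, the epithelium covariate, or without either pair of libraries.

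Called genes in FGF1 against control were 0 with pseudocount 0.1, 1 with 0.5, 50 with no filter, 0 with a mean FPKM of at least 5, 1 with start-event and 3 with end-event values, 1 with transcripts listed in all 12 libraries, 38 with the 8 libraries compared, 28 with no variance trend, 1 with the replicate block, 2 with the smooth muscle and 0 with the epithelium covariate, 38 without either pair of libraries, and 1 to 83 without single libraries. The main fit did not pair libraries by replicate number. Deviations of same-numbered libraries from their group means correlated above 0.1 in 0 of 4 pairs for DSS and control. This held for 1 pair of FGF1 and DSS and 2 of FGF1 and control, the highest being 0.40 for control 3 and FGF1 3. These correlations do not settle whether the libraries were paired.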
